A study of Homo sapiens with 6 samples.

Results

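The HLA class I heavy chains HLA-B, HLA-C, HLA-E, HLA-F and HLA-G, the light chain B2M and the peptide loading genes TAP1, TAP2 and TAPBP were followed in esophageal cancer cells after irradiation. All probes annotated to these 9 of 18665 gene symbols were taken, which gave 15 of the 48803 probes on the array. HLA-B, HLA-E, HLA-G and TAP1 had 1 probe each, HLA-C, HLA-F, B2M and TAP2 had 2, and TAPBP had 3. KY170 (kyse170 in the labels, which call it sensitive to radiation) is a human line of esophageal squamous cancer, and KY170R is a radioresistant clone derived from it by continuous fractionated irradiation. Cells of both lines, cultured in serum-supplemented RPMI medium, were irradiated with an X-ray linear accelerator and profiled on Illumina Human-6 V3 arrays at 0, 8 and 24 h, with 1 array per line and time point. KY170R is a single clone, so clonal differences and radioresistance cannot be told apart. The dose given before profiling is not stated in the sources used here, nor is it clear whether the 0 h cells had already been irradiated.

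Class I molecules display peptides from proteins made inside the cell to CD8+ T cells, and some of them also serve as ligands of receptors on natural killer cells. Each molecule consists of a heavy chain, the invariant light chain beta-2-microglobulin and a peptide, and it is assembled in the endoplasmic reticulum. TAP1 and TAP2 form the transporter that carries peptides from the cytosol into that compartment, and tapasin, the product of TAPBP, holds empty class I molecules next to it. Most of the genes, though not HLA-G, are transcribed in most nucleated cells, and interferons and NF-kB signalling are known to raise their transcription.

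To show the sequence context in which the class I genes are transcribed, the windows from 250 bases before to 50 bases after the annotated start were read from RefSeq (GRCh38.p14) for HLA-B, HLA-F and TAP1, which were called different between the lines, for HLA-C as the closest relative of HLA-B among the windows, and for the shared light chain B2M. The windows lie at chr6:31357130-31357429 on the minus strand for HLA-B, chr6:31272043-31272342 on the minus strand for HLA-C, chr6:29723184-29723483 on the plus strand for HLA-F, chr6:32853655-32853954 on the minus strand for TAP1 and chr15:44711267-44711566 on the plus strand for B2M. Each is written 5′ to 3′ in the direction of the gene, and capitals mark matches to 5 motifs on either strand: the NF-kB consensus, the core of the interferon-stimulated response element (GAAANNGAA), the form of that element in class I promoters (AGNGAAACT), the CRE-like half-site (TGACG) and the inverted CCAAT or Y box (ATTGG).
HLA-B: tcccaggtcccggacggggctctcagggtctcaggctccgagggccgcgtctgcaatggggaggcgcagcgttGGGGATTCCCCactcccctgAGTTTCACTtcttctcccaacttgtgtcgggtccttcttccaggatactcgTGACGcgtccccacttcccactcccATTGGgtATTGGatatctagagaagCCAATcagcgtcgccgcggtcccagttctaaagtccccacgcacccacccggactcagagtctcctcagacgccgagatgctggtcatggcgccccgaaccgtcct
HLA-C: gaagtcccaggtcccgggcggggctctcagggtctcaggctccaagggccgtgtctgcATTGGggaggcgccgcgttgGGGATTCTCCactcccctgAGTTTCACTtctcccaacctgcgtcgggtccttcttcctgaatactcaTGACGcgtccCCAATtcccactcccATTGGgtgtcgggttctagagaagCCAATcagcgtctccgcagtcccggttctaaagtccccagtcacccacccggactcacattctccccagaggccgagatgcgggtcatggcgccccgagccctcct
HLA-F: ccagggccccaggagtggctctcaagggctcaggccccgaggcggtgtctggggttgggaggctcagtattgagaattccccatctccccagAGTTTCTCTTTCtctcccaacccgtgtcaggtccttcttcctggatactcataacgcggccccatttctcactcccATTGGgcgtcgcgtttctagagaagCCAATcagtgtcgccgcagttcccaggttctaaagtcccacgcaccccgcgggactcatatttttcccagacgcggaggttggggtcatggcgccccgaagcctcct
TAP1: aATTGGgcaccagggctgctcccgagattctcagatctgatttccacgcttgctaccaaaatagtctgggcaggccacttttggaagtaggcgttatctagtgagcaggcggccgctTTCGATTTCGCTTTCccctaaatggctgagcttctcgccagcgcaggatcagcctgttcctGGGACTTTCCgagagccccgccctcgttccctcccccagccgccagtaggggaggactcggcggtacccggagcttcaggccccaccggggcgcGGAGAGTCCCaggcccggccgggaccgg
B2M: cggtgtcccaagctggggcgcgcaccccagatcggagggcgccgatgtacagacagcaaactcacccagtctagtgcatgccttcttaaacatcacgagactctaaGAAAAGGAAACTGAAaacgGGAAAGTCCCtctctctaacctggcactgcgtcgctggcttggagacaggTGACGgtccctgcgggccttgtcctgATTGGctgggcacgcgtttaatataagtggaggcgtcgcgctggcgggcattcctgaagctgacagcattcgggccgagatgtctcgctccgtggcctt

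The HLA-B and HLA-C windows were identical at 88.5% of aligned positions, HLA-B and HLA-F at 79.7%, and HLA-C and HLA-F at 78.9%. All 3 held the class I form of the response element upstream of the start, at bases 157 to 149 before it in HLA-B, 153 to 145 in HLA-C and 158 to 150 in HLA-F, where it overlapped a match to the core. This form was chosen after the sequences had been seen, and it occurred in 1.34% of the 35116 RefSeq promoter windows. In HLA-B it was preceded by a pair of overlapping NF-kB matches from 177 to 167 bases before the start and followed by the CRE-like half-site at 106 and by 3 Y box matches. B2M and the first of the 2 TAP1 windows each held a pair of overlapping core matches and at least 1 NF-kB match. The TAP1 window also shared 13 bases with the window of PSMB9, the immunoproteasome gene beside it. Over all 11 windows of the 8 genes that had one, the NF-kB consensus occurred in 6 (11.3% of all windows), the core in 5 (8.11%), the CRE-like half-site in 4 (24.6%) and the Y box in 6 (34.6%). HLA-E had no window in the table. These are the letters of the reference assembly, the alleles of KY170 were not read, and a match is not a measured binding site.

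**Figure D1:**
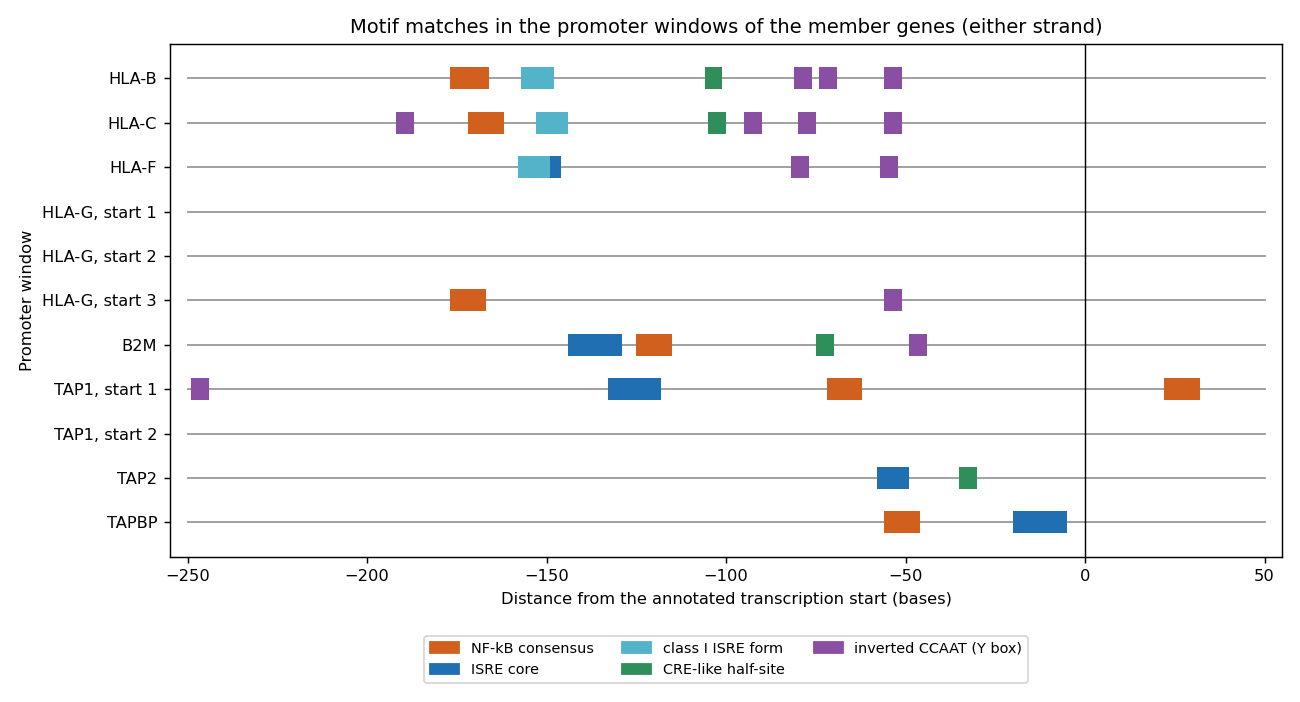
Motif matches on either strand in the 11 promoter windows of the member genes, by distance in bases from the annotated transcription start (0), each line being 1 window and each block 1 match coloured by motif. HLA-B, HLA-C and HLA-F carry the class I form of the response element within the stretch from 158 to 145 bases before the start, while 2 of the 3 HLA-G windows and the second TAP1 window carry no match.

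Intensities are given as deposited, on a linear scale after background subtraction by the authors, and values of different probes are not compared with each other. A value above 12.5 was counted as above background, because sizes of negative values exceeded this limit in only 2% of cases. Differences are given on the log2 scale after values under the limit had been raised to it. Of the 15 member probes, 13 had a mean above the limit and were tested with limma among 19678 probes in all, and every one of the 9 genes kept at least 1 probe. The second HLA-C probe (ILMN_2150787) read between -11.8 and -5.36 on the 6 arrays and the second HLA-F probe (ILMN_1762861) between -6.13 and 7.71, so neither was measured on any array. The labels do not say that the arrays came from separate cultures, and p-values therefore measure only the spread between these arrays, which may be technical.

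KY170 and KY170R arrays of one time point correlated at 0.966 to 0.977 (Pearson, across the tested probes), and the 8 and 24 h arrays of a line at 0.957 to 0.964, whereas the 0 h arrays correlated with the later arrays of their line at 0.893 to 0.925. Of the squamous epithelial markers, 6 of 7 genes on the array were above the limit on at least 1 array, with CDH1 between 2764 and 7588, while the keratin KRT4 was never above it. Of the 6 tested, 2 were called lower in KY170R, KRT13 (log2 difference -3.18) and KRT5 (-1.74), and 2 higher, KRT14 (3.07) and the desmoglein DSG3 (1.13). The size of the KRT14 difference depends on the limit, since its 0 h value in KY170 (5.91) was under it. Of 9 leukocyte marker genes, 3 (CD3D, CD3E and NKG7) were never above the limit, the pan-leukocyte marker PTPRC did not exceed 13.2, and the summed level (each gene by its highest probe on an array) ran from 552 to 1135 in KY170 and from 970.1 to 1259 in KY170R. CD68, which is also expressed outside leukocytes, read 328 to 1121 by its brightest probe. By their brightest probes CD14 read 27.3 to 62.3, CD79A 13.2 to 32.7 and MS4A1 6.55 to 34.6, while the other probes of these genes stayed under the limit. Of 7 fibroblast markers, 5 were never above the limit, COL1A1 was above it on all 6 arrays (20.7 to 92.4), and the summed level was 55.4 to 91.4 in KY170 against 34.7 to 113 in KY170R. For endothelium 2 of 5 were never above it, with sums of 56.9 to 228 and 29.8 to 102, and CDH5 was called lower in KY170R (-1.63). CDH5 read 127, 26.4 and 29.5 in KY170 against 21.6, -1.36 and 3.65 in KY170R. Its 8 and 24 h values in KY170R were under the limit, so the size of the difference depends on the limit. Of these 5 marker calls, those of KRT13 and KRT14 were also made with a single prior variance. The T cell markers CD3D and CD3E were thus not above background in either line, whereas CD14 and CD79A were above it on all 6 arrays at low levels. Keratin genes differed between the lines. What part the keratin difference or the distance of the 0 h arrays has in the class I values was not tested.

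HLA-B stood at a higher level in KY170R than in KY170 at every time point. HLA-B encodes a classical heavy chain that presents peptides to CD8+ T cells. Its probe read 459, 267 and 334 in KY170 at 0, 8 and 24 h, and 2207, 1961 and 1683 in KY170R. The lowest KY170R array was above the highest KY170 array, so the lines did not overlap. The ratio of KY170R to KY170 was 4.81 at 0 h, 7.35 at 8 h and 5.04 at 24 h, which gave a mean log2 difference of 2.49 ± 0.34 (SD over 3 time points), a 5.63-fold difference with a 95% confidence interval of 2.06 to 2.92 on the log2 scale (adjusted p = 6.35e-05, limma with trended prior). In bulk RNA a larger share of cells expressing the gene and more RNA per cell cannot be told apart. HLA-B was also called by limma with a single prior variance (adjusted p = 0.0167) and with each time point left out, but not without the time term (adjusted p = 0.107).

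HLA-C, the other classical heavy chain with a probe here, read 37.0, 15.5 and 12.9 in KY170 against 82.0, 26.9 and 41.3 in KY170R. Each KY170R array was above the KY170 array of its time point, at ratios of 2.21, 1.74 and 3.22, but the lines overlapped, and the 24 h array of KY170 lay just above the background limit. The log2 difference of 1.21 ± 0.45 (interval 0.46 to 1.96) did not pass the test (adjusted p = 0.0890), so HLA-C was not called different between the lines in spite of a mean difference of 2.31-fold.

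Among the nonclassical heavy chains, HLA-F was called higher in KY170R and HLA-E and HLA-G were not. HLA-F, a nonclassical chain found largely inside the cell, read 326, 110.2 and 142 in KY170 against 604, 288 and 291 in KY170R. KY170R was higher at each time point (1.85-, 2.61- and 2.05-fold), although its 8 and 24 h arrays were below the 0 h array of KY170. The mean log2 difference was 1.10 ± 0.25 (2.15-fold, adjusted p = 0.0251). The call was lost without the 0 h arrays (1.21, adjusted p = 0.146), without the 8 h arrays (0.96, adjusted p = 0.289) and with a single prior variance (adjusted p = 0.114).

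HLA-E, which binds leader peptides of other class I chains and is read by the CD94/NKG2 receptors of natural killer cells, gave 655, 355 and 258 in KY170 against 805, 474 and 432 in KY170R. The KY170R value was the higher one at each time point, at ratios of 1.23, 1.34 and 1.68, and the lines overlapped. Its log2 difference of 0.49 (interval 0.04 to 0.93) was not called (adjusted p = 0.261). HLA-G, a nonclassical chain best known from the placenta, was close to background throughout: 15.9, 5.81 and 23.1 in KY170 against 16.7, 11.4 and 21.6 in KY170R. The 8 h arrays of both lines were below the limit, and the difference of -0.01 had an interval from -0.68 to 0.66.

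**Figure D2:**
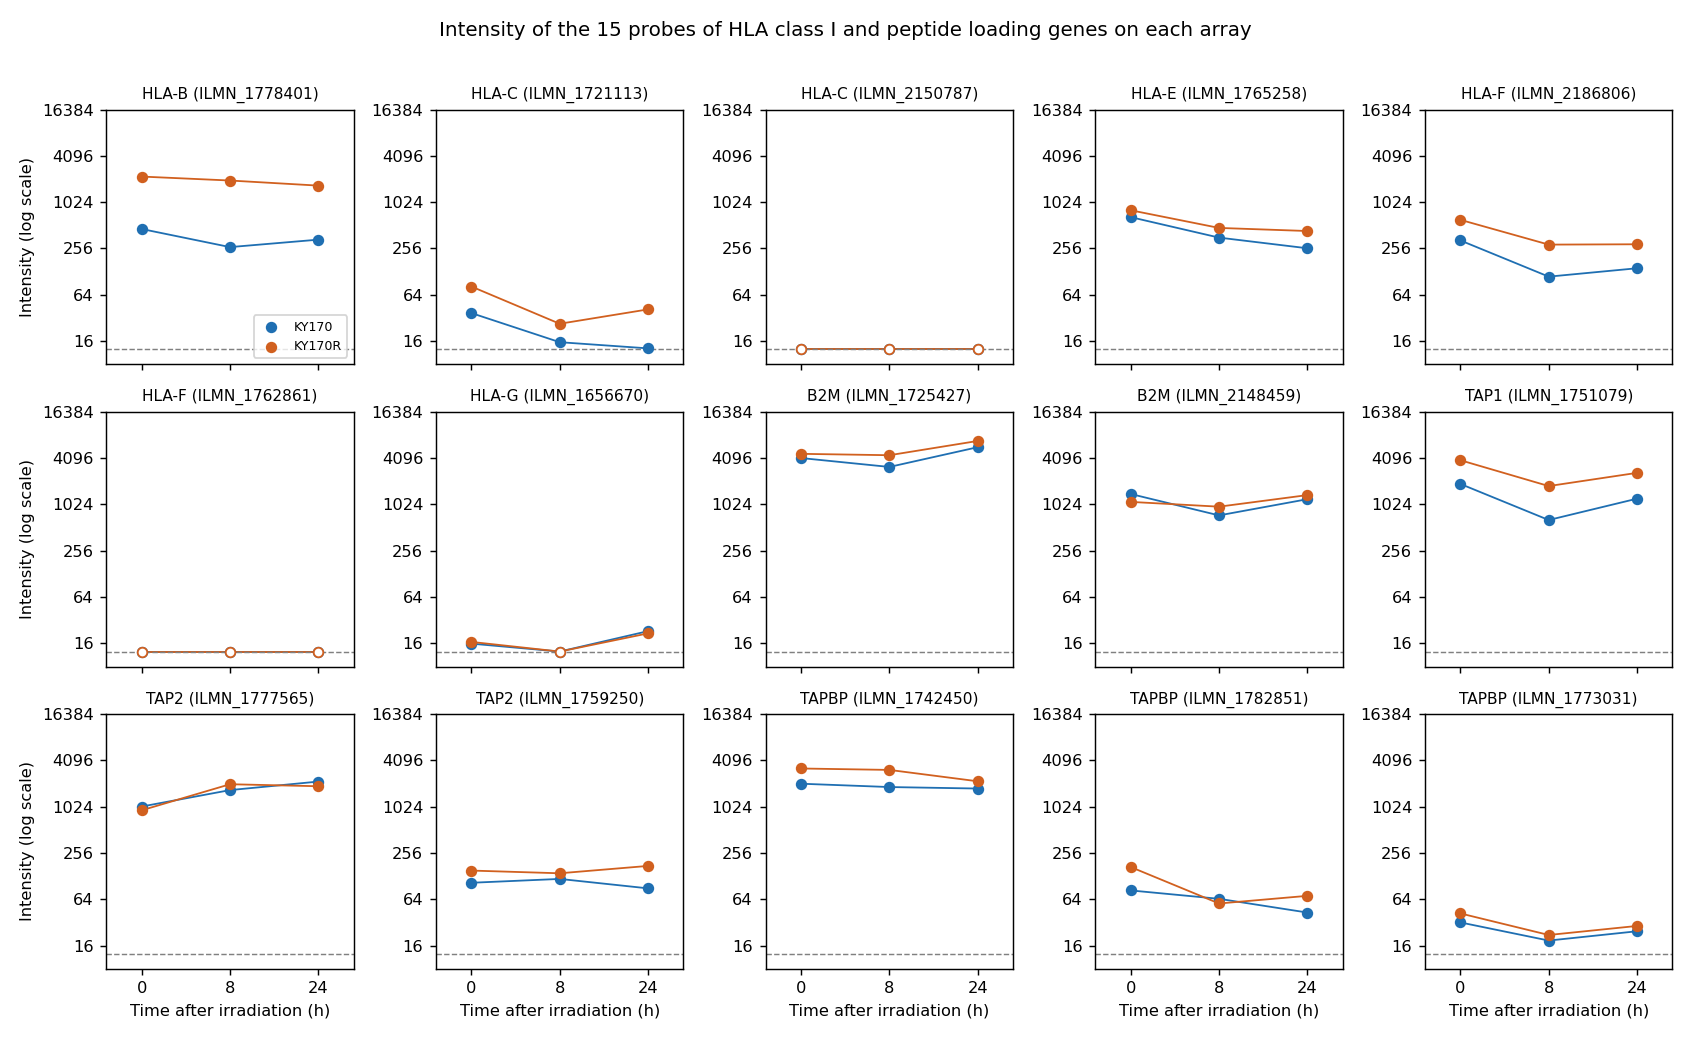
Intensity (log2-spaced axis) against time after irradiation (h) for each of the 15 member probes, with KY170 in blue and KY170R in orange and 1 array per point. The dashed line is the background limit of 12.5, and open points are values under it drawn at the limit. The KY170R points of HLA-B (1683 to 2207) lie above all KY170 points (267 to 459), and the second probes of HLA-C and HLA-F stay under the limit on all 6 arrays.

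B2M, the light chain that every class I molecule needs, was not called different between the lines. The first probe (ILMN_1725427) read 4117, 3153 and 5698 in KY170 against 4670.2, 4479 and 6869 in KY170R. KY170R was above KY170 at each time point, but by less than the change from 8 to 24 h within a line, and the lines overlapped. The log2 difference was 0.32 (interval 0.01 to 0.63, adjusted p = 0.293). The second probe (ILMN_2148459) read 1403, 739 and 1201 in KY170 against 1107, 959 and 1358 in KY170R, so KY170R was lower at 0 h and higher later, with a mean of 0.07 (interval -0.35 to 0.49). The difference of 2.49 for HLA-B lay outside the intervals of both B2M probes.

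Of the transporter pair, TAP1 was called higher in KY170R and the TAP2 probes were not. TAP1 read 1897, 643 and 1219.8 in KY170 against 3858, 1778 and 2642 in KY170R. Each KY170R array was above its KY170 counterpart (2.03-, 2.76- and 2.17-fold), and only the 8 h array of KY170R fell below the highest KY170 array. The mean log2 difference was 1.20 ± 0.23 (2.30-fold, adjusted p = 0.00306). It missed the threshold without the 0 h arrays (1.29, adjusted p = 0.0677), without the 8 h arrays (1.07, adjusted p = 0.0952) and with a single prior variance (adjusted p = 0.0952).

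TAP2 was read by probes to different annotated transcripts. The first (ILMN_1777565) gave 1031, 1688 and 2179.9 in KY170 against 921, 2012 and 1894 in KY170R, which is lower in KY170R at 0 and 24 h and higher at 8 h. Its mean difference was -0.04 (interval -0.42 to 0.34). The second (ILMN_1759250) gave 105, 118 and 88.9 in KY170 against 152, 139.7 and 174 in KY170R. Here the lines did not overlap, yet the difference of 0.58 ± 0.37 (interval -0.01 to 1.17) was not called (adjusted p = 0.328). The interval of the first TAP2 probe ended below the lower bound of 0.83 for TAP1.

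Tapasin (TAPBP), which joins class I molecules to the transporter, had probes to 3 annotated transcripts. The first (ILMN_1742450) read 2044, 1849 and 1768 in KY170 against 3224, 3089 and 2197 in KY170R. All KY170R arrays were above all KY170 arrays, by 1.58-, 1.67- and 1.24-fold at the same time point. The log2 difference of 0.57 ± 0.23 (interval 0.21 to 0.93) stayed above the threshold (adjusted p = 0.0926) but was called without the 24 h arrays (0.70, adjusted p = 0.0432). The other TAPBP probes overlapped between the lines, from 43.1 to 83.6 in KY170 against 56.5 to 169 in KY170R for ILMN_1782851 (0.51, interval -0.19 to 1.22), and from 18.6 to 32.1 and 22.0 to 42.0 for ILMN_1773031 (0.29, interval -0.42 to 0.99).

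Counted over the 13 tested probes, 3 (23.1%) were called higher in KY170R, those of HLA-B, HLA-F and TAP1, beside 1.65% of all tested probes. None was called lower, beside 1.4%. The median log2 difference was 0.51 against -0.003 over all tested probes, and 9 of 13 (69.2%) were higher in KY170R at all 3 time points, beside 16.9% of all tested probes. In 3 (23.1%) all KY170R arrays lay above all KY170 arrays, beside 2.86% of all tested probes. These were the HLA-B probe, the second TAP2 probe (ILMN_1759250) and the first TAPBP probe (ILMN_1742450), of which only that of HLA-B was called. With a single prior variance 1 member probe, that of HLA-B, was called higher, beside 0.361%. The probes are not independent of each other, since several read 1 gene and 8 of the 9 genes lie on chromosome 6, with B2M on chromosome 15. The members, like the lists below, were also chosen with earlier results of these data known. Their shares therefore describe the members and are not a test of them.

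**Figure D3:**
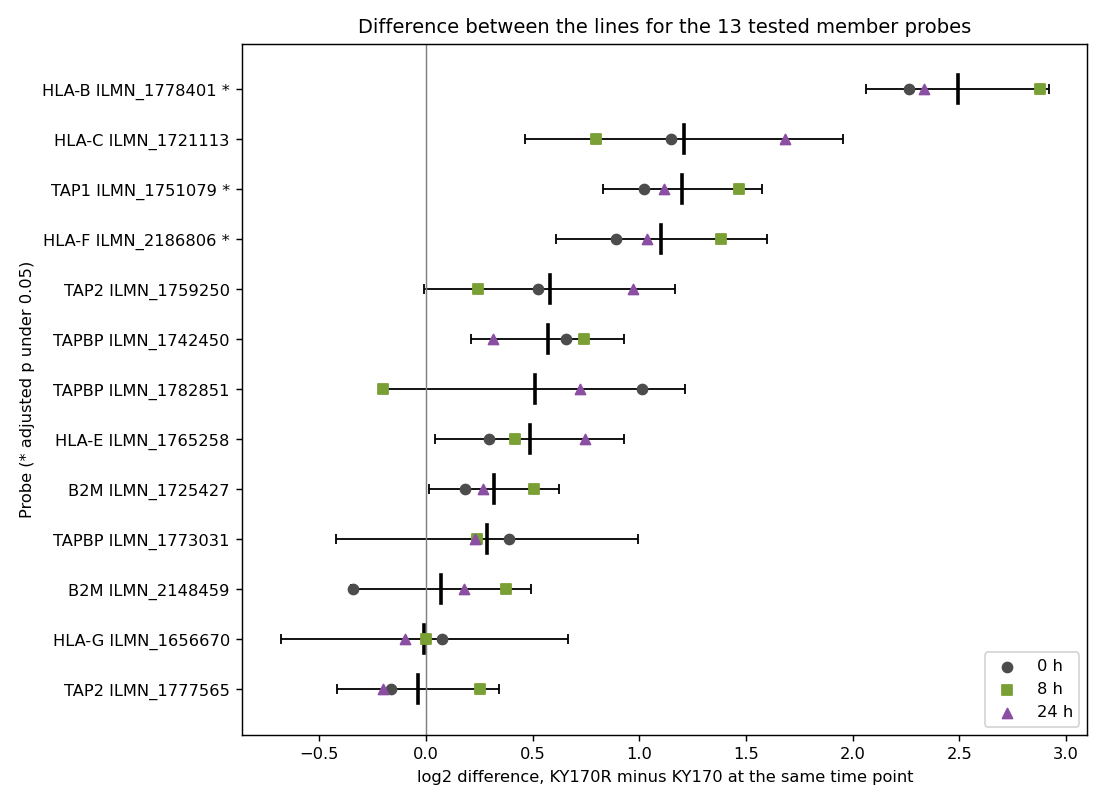
Difference on the log2 scale between KY170R and KY170 at 0 h (circles), 8 h (squares) and 24 h (triangles) for the 13 tested probes, with the mean (black tick), its 95% confidence interval (bar) and an asterisk for an adjusted p under 0.05. HLA-B lies apart at a mean of 2.49, TAP1 and HLA-F follow at 1.20 and 1.10 with HLA-C at 1.21 uncalled, and HLA-G and the first TAP2 probe centre near 0.

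Class I genes resemble each other in sequence, and a probe for one can read transcripts of another. Probe sequences were not used here, so cross-reading among the HLA probes was not tested, and the values belong to the probe and not with certainty to the gene. The class I pseudogene HLA-H was also higher in KY170R by 1 of its 2 probes. Its first probe (ILMN_2130441) read 2462, 1361 and 1291 in KY170 against 4332, 3439 and 2948 in KY170R, without overlap between the lines (log2 difference 1.11, adjusted p = 0.00444, and 0.114 with a single prior variance). Its second probe read 133 to 258 in KY170 against 207 to 393 in KY170R (0.69, adjusted p = 0.150). The HLA-B difference exceeded those of all other HLA probes on the array that were tested here, the upper bounds of HLA-C (1.96) and HLA-F (1.60) lying below its lower bound of 2.06. Differences between probes were not tested.

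Among the partners that supply and assemble class I ligands, the immunoproteasome subunits encoded next to the TAP genes were also higher in KY170R. On chromosome 6 the order is TAP2, PSMB8, TAP1 and PSMB9. PSMB9 read 694, 333 and 252 in KY170 against 2764, 1368 and 922 in KY170R, above KY170 by a nearly constant difference (1.97 ± 0.09, adjusted p = 0.000183). This probe was also called with a single prior variance (adjusted p = 0.0223). The second PSMB9 probe (ILMN_1798233) read 22.7, 11.5 and -5.77 in KY170 against 101, 20.5 and 26.6 in KY170R. It was under the limit in KY170 at 8 and 24 h and was not called by limma with trended prior (1.315, adjusted p = 0.0869). PSMB8 was called higher by its brightest probe (0.69 ± 0.03, adjusted p = 0.0357), a call that was lost with a single prior variance (adjusted p = 0.226). Of its other probes ILMN_1767006 was called higher (0.96, adjusted p = 0.0393), while ILMN_2284794 (0.36, adjusted p = 0.677) and ILMN_1747195 (-0.20, adjusted p = 0.834) were not called. PSMB10, the third inducible catalytic subunit, was not called (-0.10, adjusted p = 0.835). Of 10 tested genes of this list, which also holds the proteasome activators PSME1 and PSME2, the trimming peptidases ERAP1 and ERAP2, the chaperones CALR and CANX and the tapasin relative TAPBPL, 2 were called higher and 0 lower. The median was 0.17, beside -0.01 over 11293 named genes by their brightest probe, of which 2.13% were called higher and 1.7% lower.

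Of 13 transcription factors of class I genes, 1 was called higher in KY170R, IRF9, the DNA-binding subunit of the interferon-activated complex ISGF3 (459, 302 and 323 in KY170 against 855, 517 and 799 in KY170R, 0.99, adjusted p = 0.0247, and 0.144 with a single prior variance). NLRC5, the transactivator of class I promoters, gave 0.45 and IRF1 0.51, neither of which passed the test (adjusted p = 0.679 and 0.334). The list's median was 0.20. For this and the following lists, the median over all named genes was -0.01, with 2.13% called higher and 1.7% lower. Of 6 receptor and kinase genes of interferon signalling none was called (median 0.27), IFNGR2, a chain of the interferon gamma receptor, being nearest to the threshold (0.61, adjusted p = 0.0544). Of 7 tested class I-like molecules 2 were called higher and 0 lower (median 0.51): MR1, which presents microbial vitamin B metabolites (0.90, adjusted p = 0.0427), and PROCR, a receptor of protein C with a class I fold (1.22, adjusted p = 0.0477). Both calls were lost with a single prior variance (adjusted p = 0.147 and 0.202). Of 9 class II genes on the array 8 were never above the limit, and the class II peptide loading chain HLA-DMA, the 1 tested, differed by -0.09 (adjusted p = 0.932).

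**Figure D4:**
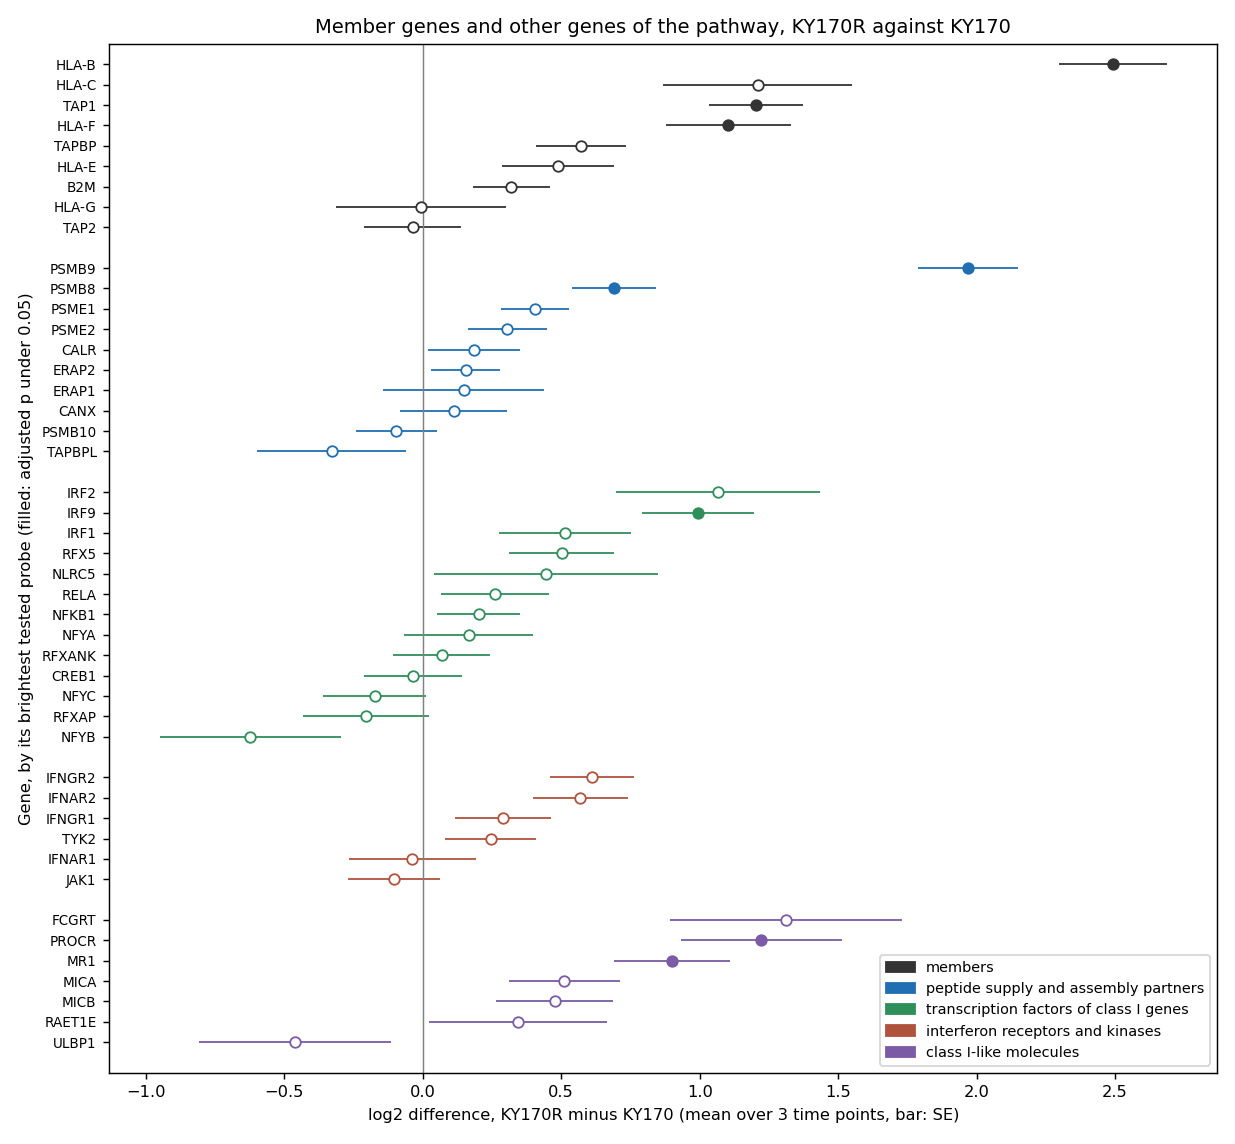
Mean log2 difference between KY170R and KY170 over 3 time points, with its SE as the bar, for the 9 member genes and 4 lists of related genes, each gene by its brightest tested probe and filled where the adjusted p is under 0.05. The filled points are HLA-B, TAP1, HLA-F, PSMB9, PSMB8, IRF9, PROCR and MR1, all to the right of 0.

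The genes whose brightest probe followed that of HLA-B most closely over the 6 arrays were ADAM8, a membrane metalloprotease (Pearson r = 0.996), IFNAR2, a chain of the type I interferon receptor (0.990), FEZ1 (0.987), the glutathione peroxidase GPX2 (0.986) and PPP2R2C (0.980), out of 11292. These correlations describe 6 arrays that share the same normalization and consist of a high and a low set of 3. Among the members TAPBP ranked 117 (0.888), TAP1 192 (0.831), HLA-F 254 (0.803), HLA-C 340 (0.763), HLA-E 970 (0.576) and B2M 1624 (0.445). HLA-G and TAP2 did not follow it (r = -0.003 and -0.18).

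After 0 h the HLA-C, HLA-E, HLA-F and TAP1 probes fell in both lines, while 1 TAP2 probe rose. Both later times are set against the same 0 h arrays, 1 per line, which were the ones that stood apart over all probes. No array is labelled as unirradiated at 8 or 24 h, so irradiation and time in culture cannot be told apart. At 8 h TAP1 fell by 1.56 on the log2 scale in KY170 and by 1.12 in KY170R, a mean change of -1.34 (adjusted p = 0.000626). HLA-C changed by -1.43 (adjusted p = 0.0187), HLA-F by -1.32 (adjusted p = 0.00339) and HLA-E by -0.82 (adjusted p = 0.0215), each with the same sign in both lines. The HLA-E call was lost with a single prior variance (adjusted p = 0.0575). HLA-B changed by -0.78 in KY170 and by -0.17 in KY170R, and the mean of -0.48 ± 0.24 (SE) was not called (adjusted p = 0.144). The first TAP2 probe rose by 0.71 in KY170 and by 1.13 in KY170R (mean 0.92, adjusted p = 0.00576), whereas the second changed by 0.02 (interval -0.70 to 0.75). Thus 4 of 13 probes (30.8%) were called lower at 8 h, beside 18.5% of all tested probes, and 1 (7.69%) higher, beside 19%.

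By 24 h HLA-E (-1.12, adjusted p = 0.00348), HLA-F (-1.13, adjusted p = 0.00624) and HLA-C (-1.26, adjusted p = 0.0278) were still below 0 h, as was TAP1 by a smaller margin (-0.59, adjusted p = 0.0352) and the second TAPBP probe (ILMN_1782851, -1.10, adjusted p = 0.0383). TAP2 stayed higher by its first probe (1.06, adjusted p = 0.00205). B2M was higher by its first probe (0.51, adjusted p = 0.0282) and not by its second (0.03, interval -0.48 to 0.55). With a single prior variance the TAP1 and B2M calls were lost (adjusted p = 0.110 and 0.141), and with the floor at 24.5 that of HLA-C (-0.79, adjusted p = 0.0676). The HLA-B change was -0.46 in KY170 and -0.39 in KY170R (mean -0.43, interval -0.95 to 0.10). In all, 5 probes (38.5%) were called lower, beside 23% of all tested probes, and 2 (15.4%) higher, beside 24.1%, and the median over all tested probes was itself -0.13. The members called lower at 24 h thus stand beside a change of many other probes in each direction.

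Between 8 and 24 h TAP1 rose by 0.75 (adjusted p = 0.0422) and B2M, by its first probe, by 0.74 (adjusted p = 0.0229), each in both lines. These 2 of 13 probes (15.4%) were called higher, beside 5.92% of all tested probes, and 0 lower, beside 4.98%. The second B2M probe moved the same way without passing the test (0.60, interval 0.08 to 1.12, adjusted p = 0.122), and neither call was made with a single prior variance.

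Most partners of the pathway were called lower after 0 h. At 8 h 6 of 10 were called lower, among them PSMB8 (-1.30, adjusted p = 0.000424) and PSMB9 (-1.04, adjusted p = 0.00368), and 1 higher, the chaperone CANX (1.09), beside 22% lower and 21% higher of all named genes. At 24 h 7 were lower and 1 higher, beside 26.9 and 27%. Of the 13 transcription factors 3 were called higher and 2 lower at 8 h, and 5 higher and 1 lower at 24 h. IRF1, an activator of class I and TAP1 transcription, read 1598, 315 and 675 in KY170 against 1516, 410 and 1592 in KY170R, and it fell at 8 h (-2.11, adjusted p = 0.000357). It was not called at 24 h (-0.59, adjusted p = 0.122), when KY170R but not KY170 was again near its 0 h value. Of the interferon receptors and kinases 3 were higher and 1 lower at 8 h, and 3 higher at 24 h. Class I-like molecules were called lower in 3 of 7 at 8 h and in 2 of 7 at 24 h, with 1 higher at 24 h.

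**Figure D5:**
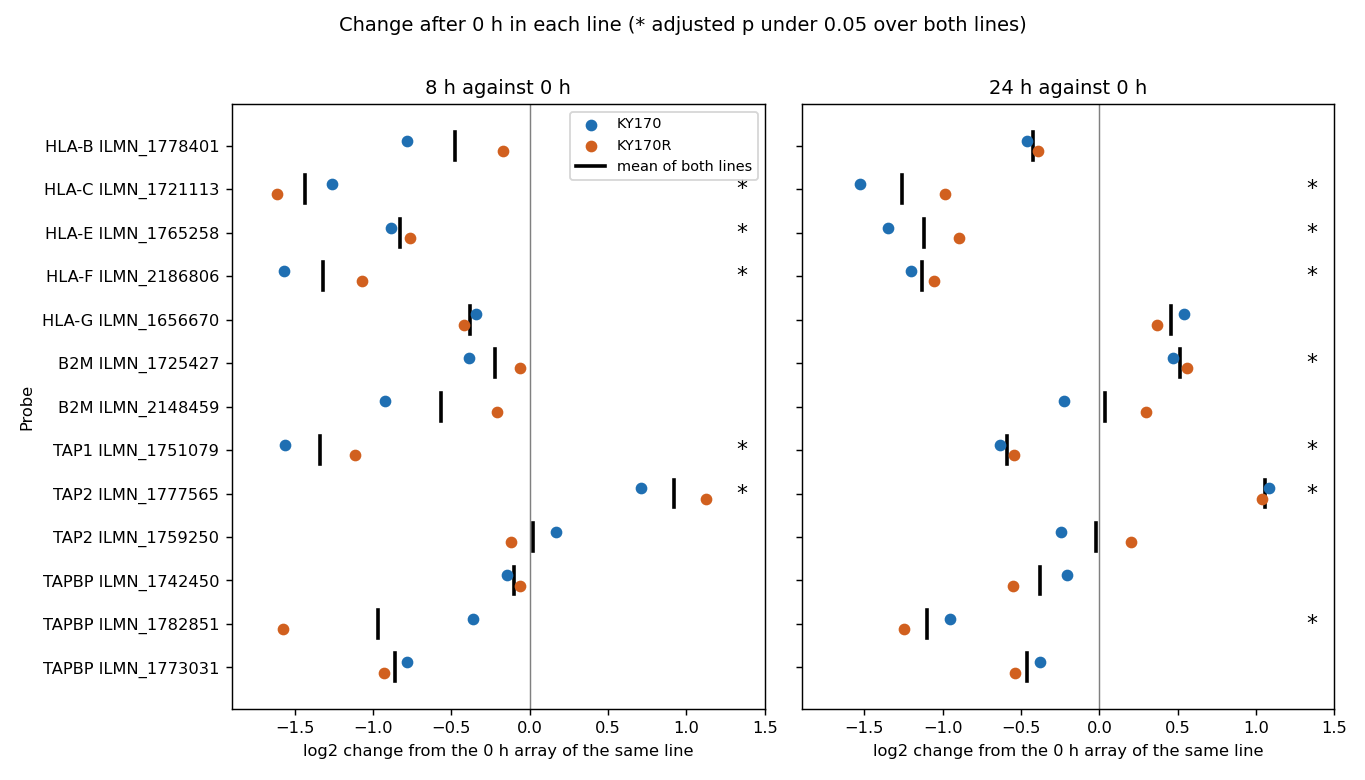
Change on the log2 scale from the 0 h array of the same line at 8 h (left) and 24 h (right) for the 13 tested probes, with KY170 in blue, KY170R in orange, the mean of both as a black tick and an asterisk for an adjusted p under 0.05. HLA-C, HLA-E and HLA-F lie left of 0 in both panels, the first TAP2 probe lies right of 0 in both, and TAP1 is nearer to 0 at 24 h (-0.59) than at 8 h (-1.34).

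The interaction of line and later time addressed whether the course after 0 h differed between KY170 and KY170R. No member probe was called higher or lower, and the same held for all 19678 probes (0% in each direction, with 262 at an unadjusted p under 0.05 by limma with trended prior and 422 with a single prior variance). The intervals were wide: the later change of HLA-B in KY170R minus that in KY170 was 0.34 with an interval from -1.02 to 1.70, and that of TAP1 was 0.27 with an interval from -1.50 to 2.04. The fit took both later arrays of a line as a single level, so any change between them counted as spread. TAP1 rose by 0.75 on the log2 scale between the later time points, which widened its interval. A difference of 2-fold in the course of these genes was therefore not detectable with this fit. How much of the width came from the fit and how much from the arrays was not tested.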

How the data were processed

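The deposited values are probe intensities, exported by the authors from Illumina BeadStudio (version not given in the sources used here). They had been background-subtracted, with 29.9% of values of each array below 0, and normalized between arrays by a method not given (medians 6.46 to 6.47). The methods state triplicate profiling, whereas 1 column per line and time point was analysed, and whether it pools repeats is not given. The second line pair of the study was not analysed here. The number of arrays, 6, limits the precision. Of 48803 probes, 27578 had 1 gene symbol in the platform annotation, 13 several and 21212 none. All 15 member probes matched current symbols through RefSeq (GRCh38.p14), which also gave the promoter windows.

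Values were raised to a background limit of 12.5 (98th percentile of the sizes of negative values) and turned into log2. Probes with a mean above the limit (19678) were tested in limma 3.58.1 (R 4.3.3) with line and 3-level time as terms, a trended and robust prior variance and Benjamini-Hochberg adjustment over all tested probes, called under 0.05. The SD beside a difference is that of the log2 differences at the 3 time points. The interaction was tested with line, later time (both later time points as a single level) and their product. Each fit left 2 residual degrees of freedom. The score of the Illumina software named in the methods needs bead-level errors and was not computed. Alternatives were plain limma, a floor of 1 with the probes above the median by mean log2 value, log2 of the value plus the limit, no filter, a stricter filter, quantile normalization, median centring, no time term, the methods' t-test and each time point left out, and a higher floor, 24.5, which was added after seeing the data.

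All member probes were named. Of related lists the counts of calls were given with up to 6 genes called between the lines, each gene by its brightest tested probe, and the 5 genes most like HLA-B by Pearson r. NLRC5, IRF1, PSMB10, IFNGR2, CANX and HLA-DMA were named after their values were seen. Members and lists were chosen with earlier results of these data known. Promoter windows were aligned globally with Biopython 1.88 (match 1, mismatch -1, gap opening -2, gap extension -0.5).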

Additional observations from a re-analysis of the deposited data

How the results depend on the processing

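Over all probes 601 were called between the lines. This count was 124 with plain limma, 4 without the time term, 12 with the methods' t-test after Benjamini-Hochberg adjustment, and 68 to 528 with both arrays of 1 time point left out. The member probes called were 3, against 1 with plain limma, 0 without the time term, 0 with the methods' t-test after adjustment and 1 to 4 with a time point left out. At an unadjusted p under 0.05 the same t-test called 634 probes and 3 member probes, those of HLA-B, the second TAP2 probe (ILMN_1759250) and the first TAPBP probe (ILMN_1742450), and neither TAP1 nor HLA-F. HLA-B was called in 12 of 14 settings, with log2 differences from 2.30 to 2.61, and missed the threshold without the time term (adjusted p = 0.107) and with the methods' t-test after adjustment (0.371). TAP1 and HLA-F were called in 8 of 14 settings each, always with the same sign. The 14 settings include the t-test without adjustment and the fit without the filter. Quantile normalization and median centring acted on arrays that were already normalized, so these counts are not independent repeats.

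Signs turned only where the difference was near 0. HLA-G was 0.31 with a floor of 1 and 0.12 with the limit added to the value. With 1 time point left out, HLA-G ranged from -0.049 to 0.037, the first TAP2 probe (ILMN_1777565) from -0.18 to 0.046 and the second B2M probe (ILMN_2148459) from -0.082 to 0.28.

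Between 24 and 8 h, 2143 probes were called, 0 with plain limma, and the 2 member calls became 0 with plain limma and 1 with a floor of 1 or with no filter. At 24 h the 7 member calls became 3 with no filter. Without the filter the interaction called 25337 probes, of which 269 had a mean above the limit, since 23065 probes of the array sat at the floor on all 6 arrays and had no spread. Time calls lost in some settings were HLA-E at 8 h and HLA-C, B2M, TAP1 and the second TAPBP probe at 24 h, with adjusted p-values up to 0.141. Leaving out a line from the time comparisons leaves no spread to test with, so the changes are given per line. No paired analysis by replicate was possible because the labels carry 1 array per group. HLA-C in KY170 and HLA-G are limited by signal near background.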
